A study of Rattus norvegicus with 372 samples.

Results

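The 10 conjugation genes described here were followed across 14 chemicals in primary rat hepatocytes: the UDP-glucuronosyltransferases Ugt1a1, Ugt1a6, Ugt2b1, Ugt2b10 and Ugt2b17 and the sulfotransferases Sult1a1, Sult1c2, Sult1c3, Sult1e1 and Sult2a1. They were chosen by name, as the probes whose gene symbol matched that list. The whole transcriptome (WT) assay held 5 of them among 20946 gene symbols, the surrogate transcriptome (ST) assay held 6 among 2604, and 8 were found in at least 1 assay. Ugt1a6 and Sult2a1 were found under these names in neither and were not analysed here.

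Hepatocytes came from male Wistar rats, 1 rat for each of 2 batches, and were kept in a collagen sandwich with 100 nM dexamethasone and 10 ng/mL EGF. Every chemical was given for 24 h at a low and a high concentration in 3 wells per batch, in 0.5% DMSO. Vehicle wells received 0.5% DMSO alone, and media wells received culture medium without DMSO. Batch 1 had 3 vehicle and 3 media wells, all on plate 4, so that its 6 chemicals on plate 5 (acetaminophen, chloramphenicol, indomethacin, ketoconazole, sulfasalazine and WY14643) had no vehicle well on their own plate. Batch 2 had 6 of each, shared between plates 2 and 3. Wells of a batch share 1 animal, so p-values over wells measure the spread between wells, and 2 rats set how far any result reaches. The batches also differed in plates, library construction and sequencing run, which cannot be told apart from the animal, so differences are given between batches.

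Glucuronidation and sulfation are the main conjugation reactions by which the liver makes lipophilic compounds soluble. UGT enzymes sit in the membrane of the endoplasmic reticulum and transfer glucuronic acid from UDP-glucuronic acid, whereas SULT enzymes are cytosolic and transfer sulfate from the cofactor PAPS. Many of these genes are controlled by ligand-activated receptors (PPAR alpha, CAR, PXR and the Ah receptor), and their substrates include bilirubin, steroid hormones, bile acids and many drugs.

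TempO-Seq reads out each transcript by the ligation of a pair of detector oligos, and read counts per probe were summed per gene and divided by the total of the well (CPM, counts scaled to a common total). Totals were 2709504 to 8948654 reads per WT library in batch 1 and 2289425 to 8975207 in batch 2, and 558190 to 2210264 per ST library over both batches. Changes are given as the log2 fold change (L2FC) against vehicle from an edgeR quasi-likelihood fit with batch as a term and TMM scaling, with Benjamini-Hochberg adjustment over all genes of the assay that averaged at least 10 reads (10191 genes in WT, 1760 in ST); a gene was called at an adjusted p under 0.05. The 8 hepatocyte markers summed to 37599 to 44869 CPM in vehicle wells, whereas the 9 Kupffer cell markers summed to 31.1 to 52.1 CPM and the 6 endothelial markers to 1.67 to 3.81 CPM. Stellate cell and fibroblast markers stood at 111 to 169 CPM in batch 1 and at 35.1 to 51.1 CPM in batch 2, and the leukocyte markers at 0.150 to 1.03 CPM with 2 of 5 at 0 in every vehicle well of batch 1 and 3 of 5 in batch 2. The biliary markers summed to 37.7 to 50.6 CPM, with 1 of 5 at 0 in every vehicle well of each batch. Krt19 and Krt7 among them, and the stellate and fibroblast markers Col1a1, Acta2, Des and Pdgfrb, had medians under 1 CPM in vehicle wells of both batches. Over all wells the medians were 28.7 CPM for Epcam (biliary) and 32.1 and 19.4 CPM for Col3a1 and Col1a2 (stellate and fibroblast). CPM of different genes depend on the probe as well as the transcript, so levels were compared within a gene only.

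The symbols of the 2 assays do not name the same probes. The probe that ST lists as Ugt1a1 is listed under the same number as Ugt1a9 in WT, next to another Ugt1a9 probe. The probes that ST lists as Ugt2b1 and Ugt2b10 are both listed as Ugt2b17 in WT. Ugt2b17 in WT was therefore read by the same probes as Ugt2b1 and Ugt2b10 in ST and is not a further gene. Whether the Ugt2b1 and Ugt2b10 probes read different transcripts or the same one was not tested. Across all wells the log2 CPM of ST and WT correlated with r = 0.96 for the Ugt2b1 probe, r = 0.98 for the Ugt2b10 probe and r = 0.87 for the Ugt1a1 probe, as a description of libraries made from the same lysates.

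Of the 8 gene symbols found, 6 passed the filter on read counts: Ugt2b17, Sult1a1 and Sult1e1 in WT and Ugt1a1, Ugt2b1 and Ugt2b10 in ST. These 6 symbols are not 6 separate measurements, since Ugt2b17 shares its probes with Ugt2b1 and Ugt2b10. Over 28 treatments the 3 WT genes gave 84 comparisons, of which 18 were called higher (21.4%) and 17 lower (20.2%), where all WT genes were called higher in 15.2% and lower in 15.0% of comparisons. The 3 ST genes were called higher in 22 of 84 comparisons (26.2%) and lower in 17 (20.2%), against 17.1% and 17.6% for all ST genes. Of these ST calls, 9 higher and 6 lower were made for both Ugt2b1 and Ugt2b10 in the same treatments and so count 2 times. With the wells of a rat summed, 8 higher and 12 lower calls were left in WT and 14 and 14 in ST. The direction differed by gene: Sult1a1 fell in 11 treatments and was called higher in 0, Sult1e1 rose in 9 and was called lower in 0, and the Ugt2b genes moved both ways. Every high concentration changed at least 1 of the 6 symbols, and 7 of the 14 low concentrations changed none of them at this threshold. The share of all genes called differed widely between treatments, in WT from 38.8% higher and 40.1% lower with acetaminophen at 10000 µM to 0.0196% and 0.00% with isoniazid at 400 µM.

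**Figure D1:**
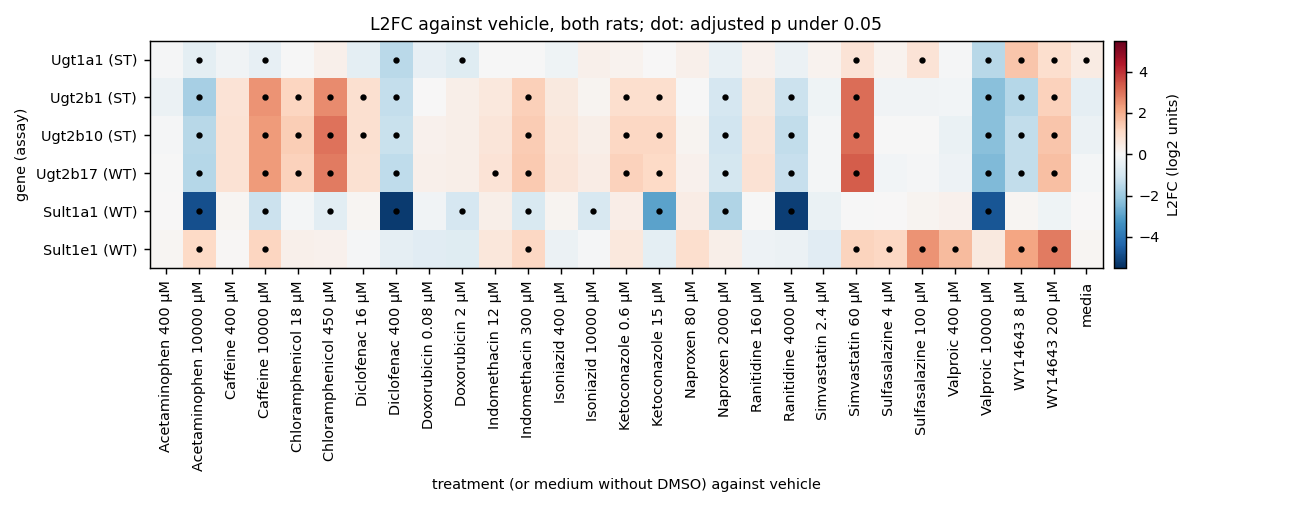
L2FC against vehicle (color scale, log2 units) of the 6 genes tested (rows, with their assay) in 28 treatments and in medium without DMSO (columns), and a dot where the adjusted p was under 0.05. The 4 darkest blue cells are Sult1a1 at acetaminophen 10000 µM, diclofenac 400 µM, ranitidine 4000 µM and valproic acid 10000 µM (L2FC -4.69 to -5.25), and the Ugt2b rows share their red cells at caffeine 10000 µM, chloramphenicol 450 µM and simvastatin 60 µM.

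Ugt1a1 encodes the enzyme that glucuronidates bilirubin. It rose with the PPAR alpha agonist WY14643 at both concentrations, more at the lower one, and fell with the anticonvulsant valproic acid at 10000 µM and the anti-inflammatory drug diclofenac at 400 µM. In ST, vehicle wells held 1683, 2134 and 2176 CPM in batch 1 and 2979 to 4101 CPM (median 3178) in batch 2. With WY14643 at 8 µM, batch 1 gave 4755, 4924 and 5056 CPM and batch 2 gave 6202, 6521 and 6866 CPM. Every treated well was above every vehicle well of its batch, an L2FC of 1.54 ± 0.18 (SE; 2.91-fold, edgeR adjusted p = 3.2e-14). At 200 µM the wells held 2250.3, 2748 and 3981 CPM in batch 1 and 4129, 4674 and 4689 CPM in batch 2. All 6 were above vehicle, with an L2FC of 0.93 ± 0.18 (edgeR adjusted p = 1.7e-06), and the high concentration lay below the low one (L2FC -0.61 ± 0.20, edgeR adjusted p = 0.029). That difference was not called with the wells of a rat summed (edgeR adjusted p = 0.34). TMM factors of the WY14643 libraries in ST were 0.695 to 0.776 against 0.952 to 1.11 in vehicle wells, and with library totals alone the L2FC of Ugt1a1 was 1.05 at 8 µM and 0.43 at 200 µM (edgeR adjusted p = 0.010).

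The same probe number in WT, listed there as Ugt1a9, gave an L2FC of 1.75 ± 0.17 with WY14643 at 8 µM (edgeR adjusted p = 1.0e-17), and the second Ugt1a9 probe gave 1.90 ± 0.17 (edgeR adjusted p = 1.8e-20). The UGT1A genes share their last exons, and which of them these probes read was not tested.

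Sulfasalazine at 100 µM, a drug for bowel inflammation, also raised Ugt1a1, to 2712, 3019 and 3833 CPM in batch 1 and 4720.5, 5283 and 5649 CPM in batch 2. All 6 wells were above the vehicle wells of their batch (L2FC 0.75 ± 0.18, edgeR adjusted p = 2.1e-04). Simvastatin at 60 µM gave the same L2FC of 0.75 ± 0.18 (edgeR adjusted p = 3.0e-04) but differed between batches, at 1.32 in batch 1 and 0.30 in batch 2, and its call was lost with the wells of a rat summed (edgeR adjusted p = 0.067). WY14643 and sulfasalazine were on plate 5 in batch 1, where treated wells had a median of 2429 CPM of Ugt1a1. On plate 4, which held the vehicle wells, that median was 1890 CPM, and the part of the plate was not tested.

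Ugt1a1 fell with valproic acid at 10000 µM, to 1298, 1408 and 1475 CPM in batch 1 and 791, 973 and 1024 CPM in batch 2. No treated well reached a vehicle well of its batch, and the L2FC was -1.53 ± 0.19 (edgeR adjusted p = 1.1e-12), at -0.73 in batch 1 and -2.28 in batch 2. Diclofenac at 400 µM left 821, 871 and 939.9 CPM in batch 1 and 1521, 1554 and 1797 CPM in batch 2. These wells were also all below vehicle (L2FC -1.47 ± 0.19, edgeR adjusted p = 3.1e-12). Doxorubicin at 2 µM gave an L2FC of -0.67 ± 0.18 (edgeR adjusted p = 0.0024) that was not called with wells summed (edgeR adjusted p = 0.21) or in batch 1 alone (L2FC -0.25, edgeR adjusted p = 0.58). Over the 28 treatments Ugt1a1 was called higher in 4 and lower in 5, near the shares of all ST genes (17.1% and 17.6%). Of these, 3 rises and 2 falls were called with wells summed, and 4 of the 5 falls had the same sign in both batches. Its L2FC ranged from -1.53 to 1.54.

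Ugt2b1 and Ugt2b10 belong to the UGT2B family, whose enzymes glucuronidate steroids, bile acids and many drugs. Both genes lie on chromosome 14 in the RefSeq annotation, and their upstream sequences are shown because the values listed under both symbols moved together in these wells. The 250 bases before each annotated start are printed from RefSeq (build GRCr8, plus strand, chr14:21378632-21378881 for Ugt2b1 and chr14:21462591-21462840 for Ugt2b10), with matches to the nuclear receptor half-sites AGGTCA or AGTTCA on either strand in capitals.
Ugt2b1: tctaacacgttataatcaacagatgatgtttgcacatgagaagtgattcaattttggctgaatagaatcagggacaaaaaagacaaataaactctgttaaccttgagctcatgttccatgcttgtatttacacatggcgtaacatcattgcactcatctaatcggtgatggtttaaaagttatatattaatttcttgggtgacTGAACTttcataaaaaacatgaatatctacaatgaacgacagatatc
Ugt2b10: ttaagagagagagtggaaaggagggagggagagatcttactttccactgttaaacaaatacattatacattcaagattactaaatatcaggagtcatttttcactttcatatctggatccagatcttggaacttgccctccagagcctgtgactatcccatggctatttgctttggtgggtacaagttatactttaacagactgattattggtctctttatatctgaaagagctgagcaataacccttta
The 2 windows had the same base at 69 of 250 positions (27.6%) when compared position by position without gaps. No share was computed for unrelated windows, and a shift between the windows would hide shared stretches, so this value does not measure their likeness. Ugt2b1 held 1 match, AGTTCA on the opposite strand, 47 to 42 bases before the start, and Ugt2b10 held 0 in this window. Of 33469 RefSeq windows of the same 250 bases, 14.1% held AGGTCA, 12.2% held AGTTCA and 24.3% held either. Such a match is a description of letters and says nothing on binding. RefSeq had an entry for 9 of the 10 genes, all but Ugt2b17.

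In ST, Ugt2b1 and Ugt2b10 were both called higher in the same 9 treatments and both lower in the same 6, and neither was called in the other 13. Their condition means correlated over 30 conditions with r = 0.99 in each batch. Both were highest with the cholesterol-lowering drug simvastatin at 60 µM, the antibiotic chloramphenicol at 450 µM and caffeine at 10000 µM, and fell with valproic acid and acetaminophen at 10000 µM.

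Ugt2b1 in vehicle wells stood at 87.4, 100.2 and 121 CPM in batch 1 and at 62.1 to 101 CPM (median 80.5) in batch 2. Simvastatin at 60 µM gave 297, 555 and 667 CPM in batch 1 and 748, 841 and 873 CPM in batch 2. The ranges did not come near each other (L2FC 3.05 ± 0.21, 8.31-fold, edgeR adjusted p = 9.7e-29). Ugt2b10 rose from 296, 348 and 374 CPM in batch 1 and 178 to 239.8 CPM (median 207) in batch 2 to 1450.4, 2015 and 2112 CPM and 1884, 1984 and 2360.4 CPM. That was an L2FC of 3.08 ± 0.23 (8.44-fold, edgeR adjusted p = 1.3e-25), and the summed WT value, Ugt2b17, gave 3.32 ± 0.24 (9.99-fold, edgeR adjusted p = 2.2e-27).

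Chloramphenicol at 450 µM, a drug that is itself glucuronidated, raised Ugt2b10 to 1290.2, 2409 and 2949 CPM in batch 1 and to 2254, 2328 and 2450.1 CPM in batch 2. Every treated well was above every vehicle well, with an L2FC of 2.97 ± 0.23 (edgeR adjusted p = 4.1e-24), and Ugt2b1 gave 2.60 ± 0.21 (edgeR adjusted p = 5.2e-23). At 18 µM the L2FC was 1.35 ± 0.23 for Ugt2b10 and 1.17 ± 0.21 for Ugt2b1, both called over wells (edgeR adjusted p = 4.3e-05 and 1.3e-04) but not with wells summed (edgeR adjusted p = 0.999 for both). The high concentration exceeded the low one by an L2FC of 1.63 ± 0.26 for Ugt2b10 (edgeR adjusted p = 4.3e-08).

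Caffeine at 10000 µM brought Ugt2b1 to 258, 262 and 461 CPM in batch 1 and 427, 472 and 563 CPM in batch 2. The groups again did not overlap (L2FC 2.47 ± 0.21, edgeR adjusted p = 2.4e-22). Ugt2b10 gave an L2FC of 2.33 ± 0.23 (edgeR adjusted p = 4.3e-18), at 1.57 in batch 1 and 2.83 in batch 2. Smaller rises of both genes were called with indomethacin at 300 µM (L2FC 1.33 and 1.42), with ketoconazole at both concentrations (0.94 to 1.15), with diclofenac at 16 µM (0.86 and 0.87) and with WY14643 at 200 µM. With the wells of a rat summed, ketoconazole at 0.6 µM was not called for either gene (edgeR adjusted p = 0.998 for both) and ketoconazole at 15 µM was not called for Ugt2b1 (edgeR adjusted p = 0.054). In batch 1, chloramphenicol, indomethacin, ketoconazole and WY14643 were on plate 5, which held no vehicle well. Simvastatin, caffeine and diclofenac were on plate 4 with the vehicle wells. Treated wells of plate 5 had medians of 125 CPM of Ugt2b1 and 516 CPM of Ugt2b10, beside 91.5 and 293 CPM on plate 4. The plates held different chemicals, and the part of the plate was not tested. Every treated well exceeded every vehicle well of its batch in both batches in 9 of the 28 treatments for each gene, where all ST genes did so in 9.66% of comparisons. Among the treatments called higher, WY14643 at 200 µM for Ugt2b1 (93.2, 119 and 131 CPM in batch 2) and diclofenac at 16 µM for Ugt2b10 overlapped with vehicle. Every well lay below vehicle in 3 of the 28 treatments for each gene (acetaminophen and valproic acid at 10000 µM and WY14643 at 8 µM), where all ST genes did so in 14.1%.

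Valproic acid at 10000 µM left 18.7, 19.7 and 33.8 CPM of Ugt2b1 in batch 1 and 17.0, 18.5 and 25.7 CPM in batch 2. The 2 batches gave the same size of fall (L2FC -2.31 ± 0.26 over both, -2.32 in each, edgeR adjusted p = 1.2e-14). Ugt2b10 fell by 2.30 on the log2 scale (edgeR adjusted p = 4.05e-14) and Ugt2b17 in WT by 2.41 (edgeR adjusted p = 5.1e-15). With acetaminophen at 10000 µM, Ugt2b1 stood at 3.13, 8.14 and 8.84 CPM in batch 1 but at 21.4, 29.6 and 31.9 CPM in batch 2. The L2FC was -1.85 ± 0.26 (edgeR adjusted p = 6.6e-11), and the difference between the batches was itself called (batch 2 minus batch 1, 2.06, edgeR adjusted p = 4.2e-04). TMM factors of these ST libraries were 0.696 to 0.850, below those of vehicle wells, so the L2FC is smaller than the ratio of CPM; with library totals alone the median gene of ST lay at -0.50.

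WY14643 moved the Ugt2b genes in opposite directions at its 2 concentrations. At 8 µM, Ugt2b10 stood at 36.3, 99.6 and 111 CPM in batch 1 and 53.7, 54.4 and 64.4 CPM in batch 2, and at 200 µM it stood at 507, 745 and 837 CPM and 340.4, 342 and 376 CPM. Vehicle lay between the concentrations in each batch, without overlap. The L2FC was -1.37 ± 0.26 at 8 µM (edgeR adjusted p = 9.5e-07) and 1.53 ± 0.23 at 200 µM (edgeR adjusted p = 2.1e-09), and the high concentration exceeded the low one by 2.90 ± 0.28 (7.47-fold, edgeR adjusted p = 3.2e-17). Ugt2b1 gave -1.57 ± 0.25 at 8 µM (edgeR adjusted p = 2.5e-08) and 1.26 ± 0.21 at 200 µM (edgeR adjusted p = 9.2e-08). In WT the 2 probes of Ugt2b17 did the same, at -1.46 and 1.54 for the probe that ST lists as Ugt2b1 and at -1.34 and 1.70 for the one it lists as Ugt2b10. Ugt1a1, in the same wells, was above vehicle at both concentrations. TMM factors of these ST libraries were 0.695 to 0.776, below those of vehicle wells. The L2FC of the rises at 200 µM are therefore larger than the ratios of CPM. With library totals alone the median gene of ST lay at -0.53 at 8 µM and -0.55 at 200 µM.

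Diclofenac gave the reverse order for the Ugt2b genes. Ugt2b1 stood at 174, 182 and 202 CPM in batch 1 and 102, 118 and 171 CPM in batch 2 at 16 µM, and at 20.5, 31.9 and 101 CPM and 24.4, 34.4 and 50.3 CPM at 400 µM. The low concentration lay above vehicle in every well, and 1 well of batch 1 at the high concentration lay within the vehicle range. The L2FC of high against low was -2.17 ± 0.26 (edgeR adjusted p = 2.3e-13), whereas the rise at 16 µM (edgeR adjusted p = 0.019) was not called with wells summed (edgeR adjusted p = 0.99) and was not called for Ugt2b17 in WT.

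**Figure D2:**
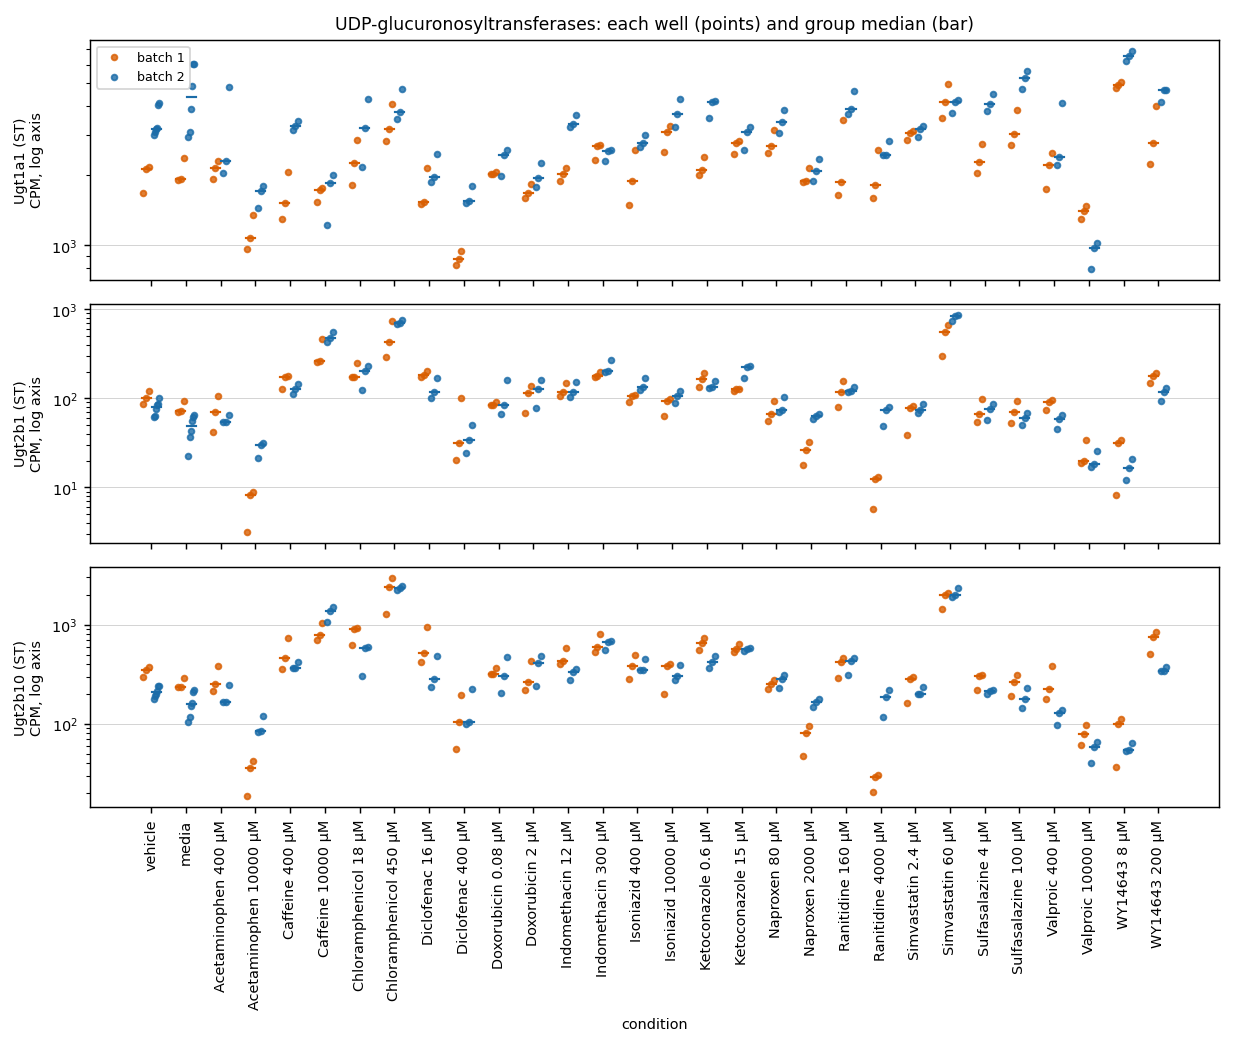
CPM (log axes) of Ugt1a1, Ugt2b1 and Ugt2b10 in the ST assay in each of 30 conditions, with points for wells, bars for group medians, orange for batch 1 and blue for batch 2. Ugt1a1 is highest at WY14643 8 µM, where Ugt2b1 and Ugt2b10 lie below their vehicle wells, and at 200 µM the group medians of all 3 genes lie above those of vehicle.

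Ugt2b17 in WT rose most with the same treatments as Ugt2b1 and Ugt2b10, which were simvastatin at 60 µM, chloramphenicol at 450 µM and caffeine at 10000 µM. Its largest fall after valproic acid and acetaminophen was with diclofenac at 400 µM, where theirs was with WY14643 at 8 µM. Vehicle wells of Ugt2b17 stood at 91.8, 95.4 and 108 CPM in batch 1 and 69.4 to 90.3 CPM (median 81.1) in batch 2. Simvastatin at 60 µM gave 654, 694 and 741 CPM and 862, 937 and 995 CPM, and diclofenac at 400 µM gave 14.8, 26.6 and 60.5 CPM and 27.0, 30.4 and 54.5 CPM. Every diclofenac well was below vehicle (L2FC -1.40 ± 0.25, edgeR adjusted p = 2.7e-07). Ugt2b17 was called in the same direction as Ugt2b10 in 14 treatments. Indomethacin at 12 µM was called for Ugt2b17 and not for Ugt2b1 or Ugt2b10, and diclofenac at 16 µM the other way round. Over the 28 treatments its L2FC had a median of 0.37, beside 0.00 for all WT genes, and ranged from -2.41 to 3.32.

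Ranitidine at 4000 µM separated the batches. Ugt2b10 was at 20.8, 29.1 and 30.3 CPM in batch 1, below every vehicle well, and at 116, 189 and 218 CPM in batch 2, which reached into the vehicle range. The L2FC was -3.56 in batch 1 and -0.43 in batch 2, and the interaction was called (edgeR adjusted p = 8.3e-09).

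Sult1a1 is the phenol sulfotransferase of the liver and sulfates acetaminophen among other phenols. It fell in 11 of the 14 high concentrations and was called in 0 of the 14 low ones. Vehicle wells held 193, 212 and 231 CPM in batch 1 and 322 to 430 CPM (median 366) in batch 2. With diclofenac at 400 µM the wells held 4.36, 5.49 and 10.5 CPM in batch 1 and 5.92, 8.05 and 17.2 CPM in batch 2. Not 1 treated well came near vehicle, and the L2FC was -5.25 ± 0.24 (38.1-fold lower, edgeR adjusted p = 4.5e-49).

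Ranitidine at 4000 µM left 10.3, 11.5 and 15.9 CPM of Sult1a1 in batch 1 and 2.52, 2.75 and 3.68 CPM in batch 2. The fall was 36.1-fold over both batches (L2FC -5.17 ± 0.24, edgeR adjusted p = 1.3e-47), but its size differed between them, at -3.92 in batch 1 and -6.88 in batch 2 (edgeR adjusted p of the difference = 9.6e-15). For this treatment the batch with the larger fall of Sult1a1 was the one with the smaller fall of Ugt2b10. Acetaminophen at 10000 µM left 3.85, 5.24 and 7.38 CPM in batch 1 and 8.78, 9.62 and 10.9 CPM in batch 2. Both batches gave a like size here (-4.76 and -4.84; L2FC -4.85 ± 0.23, 28.9-fold lower, edgeR adjusted p = 5.2e-46).

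Valproic acid at 10000 µM (L2FC -4.69), ketoconazole at 15 µM (-2.96), naproxen at 2000 µM (-1.67), caffeine at 10000 µM (-1.17), doxorubicin at 2 µM (-0.91), isoniazid at 10000 µM (-0.89), indomethacin at 300 µM (-0.83) and chloramphenicol at 450 µM (-0.60) made up the other 8 falls. With the wells of a rat summed, 7 of the 11 remained called. Every treated well lay below every vehicle well of its batch in both batches in 11 of the 28 treatments, where all WT genes did so in 10.7% of comparisons. Chloramphenicol at 450 µM was called but its wells overlapped with vehicle in batch 1, and WY14643 at 200 µM lay below vehicle in every well and was not called. Simvastatin at 60 µM, sulfasalazine at 100 µM and WY14643 at 200 µM were the high concentrations without a call.

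The summed hepatocyte markers lay below every vehicle well in all 11 treatments in which Sult1a1 was called lower, including caffeine at 10000 µM and chloramphenicol at 450 µM, where the Ugt2b genes rose. They stood at 7017 to 9474 CPM with diclofenac at 400 µM, 12066 to 17809 CPM with ranitidine at 4000 µM, 15862 to 22577 CPM with valproic acid at 10000 µM and 23401 to 36698 CPM with acetaminophen at 10000 µM. In the 3 high concentrations without a call they stood at 39505 to 44813 CPM with simvastatin, 41989 to 45521 CPM with sulfasalazine and 31046 to 35986 CPM with WY14643. Ugt1a1 and the Ugt2b genes were also called lower with diclofenac at 400 µM and with valproic acid and acetaminophen at 10000 µM. The part of the hepatocyte markers in these falls and in those of Sult1a1 was not tested. In bulk wells fewer hepatocytes and less RNA per hepatocyte cannot be told apart. Over 30 conditions the genes most like Sult1a1 were AABR07070117.1 (r = 0.94 in batch 1 and 0.95 in batch 2), Aldh8a1 (0.94 and 0.94) and Uox, the urate oxidase of the liver (0.94 and 0.93).

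**Figure D3:**
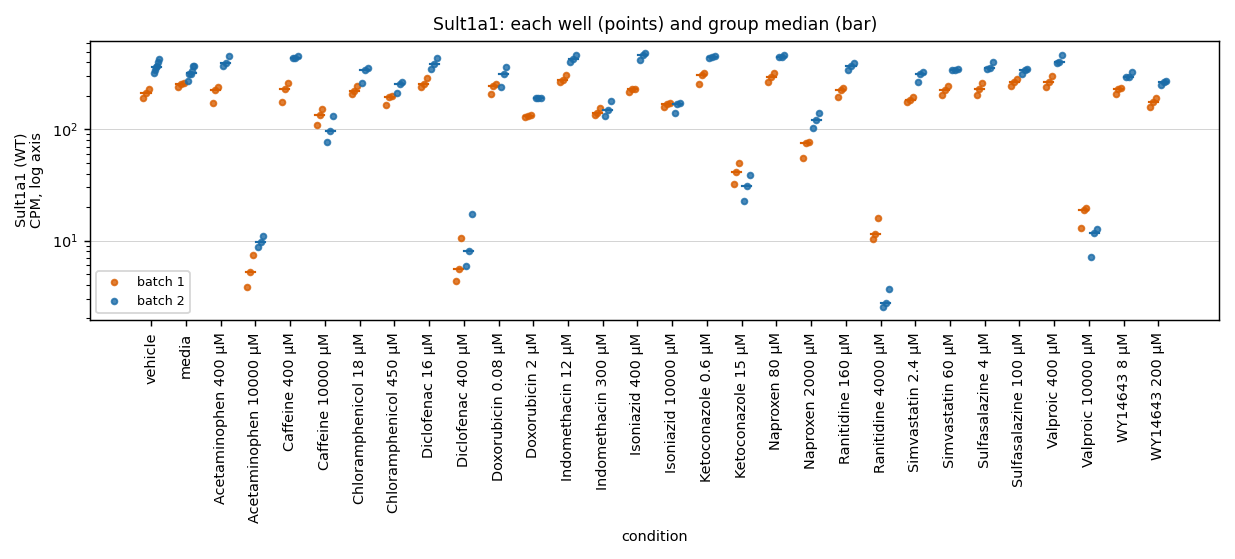
CPM of Sult1a1 in the WT assay (log axis) in each of 30 conditions, with points for wells, bars for group medians, orange for batch 1 and blue for batch 2. Acetaminophen 10000 µM, diclofenac 400 µM, ranitidine 4000 µM and valproic acid 10000 µM lie at 2.52 to 19.7 CPM in both batches, below ketoconazole 15 µM at 22.6 to 49.7 CPM and all other conditions.

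Sult1e1 encodes the estrogen sulfotransferase, which inactivates estrogens. Its RefSeq upstream window (GRCr8, chr14:20701230-20701479, plus strand) is shown because the gene rose with a nuclear receptor agonist, with the same half-sites in capitals.
Sult1e1: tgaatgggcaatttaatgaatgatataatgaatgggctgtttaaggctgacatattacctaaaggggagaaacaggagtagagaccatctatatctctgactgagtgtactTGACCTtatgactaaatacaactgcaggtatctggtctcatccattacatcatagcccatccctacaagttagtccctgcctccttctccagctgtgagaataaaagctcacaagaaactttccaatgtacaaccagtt
It held 1 match, AGGTCA on the opposite strand, 139 to 134 bases before the start, where 14.1% of all RefSeq windows held AGGTCA. The windows of Ugt1a1 and Sult1c3 held 0 matches each. With WY14643 every well of Ugt1a1 and Sult1c3 lay above the vehicle wells of its batch, whereas Sult1e1 overlapped with vehicle in batch 2.

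Sult1e1 was scarce in vehicle wells and higher in batch 2 than in batch 1. Vehicle wells gave 0.728, 1.33 and 1.61 CPM in batch 1 and 2.70 to 8.90 CPM (median 3.93) in batch 2. WY14643 at 200 µM gave 30.9, 34.8 and 37.9 CPM in batch 1 and 5.57, 5.59 and 7.61 CPM in batch 2. The groups were far apart in batch 1 and overlapped in batch 2.

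Over both batches the L2FC of Sult1e1 at WY14643 200 µM was 2.85 ± 0.35 (7.23-fold, edgeR adjusted p = 1.5e-12), which joined 5.11 in batch 1 (edgeR adjusted p = 4.5e-25) and 0.57 in batch 2 (edgeR adjusted p = 0.090). The difference between the batches was -4.51 (edgeR adjusted p = 2.0e-15). Sulfasalazine at 100 µM gave 24.7, 25.5 and 30.2 CPM in batch 1 and 6.09, 6.53 and 8.61 CPM in batch 2. Batch 1 was clear of vehicle and batch 2 was not, with an L2FC of 4.62 there, 0.64 in batch 2 (edgeR adjusted p = 0.055) and 2.48 ± 0.35 over both (edgeR adjusted p = 1.8e-09). WY14643 at 8 µM was called in each batch, at 4.23 in batch 1 (edgeR adjusted p = 3.4e-20) and 0.80 in batch 2 (edgeR adjusted p = 0.011), although its wells at 5.53, 7.38 and 8.88 CPM in batch 2 overlapped with vehicle.

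The other calls of Sult1e1 were valproic acid at 400 µM (L2FC 1.72), simvastatin at 60 µM (1.23), caffeine at 10000 µM (1.17), indomethacin at 300 µM (1.15), sulfasalazine at 4 µM (1.14) and acetaminophen at 10000 µM (1.11), and indomethacin went in opposite directions in the 2 batches (3.27 and -0.20). In batch 1, 27 of 28 treatments lay above vehicle, against 16 in batch 2. The number of treatments with every well above vehicle in both batches was 0, where all WT genes did so in 7.46% of comparisons, and 3 of the 9 calls held with wells summed. In batch 1, treated wells of plate 5 had a median of 4.07 CPM and those of plate 4 a median of 2.21 CPM. WY14643 and sulfasalazine were on plate 5, valproic acid at 400 µM (13.9, 15.5 and 18.8 CPM) was on plate 4 with the vehicle wells, and ketoconazole at 15 µM, on plate 5, held 0.573, 1.28 and 1.29 CPM, within or below the vehicle range. The part of the plate was not tested.

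Sult1e1 has another probe in ST, which averaged 6.28 reads and was below the filter. Fitted without the filter, it gave 3.24 ± 0.45 at WY14643 200 µM (edgeR adjusted p = 1.9e-10) and 2.72 ± 0.46 at sulfasalazine 100 µM (edgeR adjusted p = 2.3e-07). Its wells at WY14643 200 µM held 22.6, 26.8 and 30.4 CPM in batch 1 and 3.36, 3.58 and 7.17 CPM in batch 2, beside vehicle at 0.728, 1.68 and 2.53 CPM and at 1.02 to 5.60 CPM. Batch 1 was clear of vehicle and batch 2 overlapped with it, as with the WT probe. At sulfasalazine 100 µM every ST well was above vehicle in both batches, at 5.85, 6.86 and 8.52 CPM in batch 2, unlike with the WT probe.

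Sult1c3 and Sult1c2 were near the limit of detection. Sult1c3 averaged 3.92 reads in WT and 2.08 in ST, with 0 reads in 25 and 54 wells. In WT, vehicle wells held 3 to 5 reads in batch 1 and 2 to 5 in batch 2, WY14643 at 200 µM held 19, 23 and 42 reads in batch 1 and 6, 13 and 14 in batch 2, and WY14643 at 8 µM held 12, 15 and 18 and 11, 11 and 13. Every WY14643 well had more reads than every vehicle well of its batch. Without the filter the L2FC was 2.32 ± 0.41 at 200 µM (edgeR adjusted p = 7.7e-07) and 2.08 ± 0.43 at 8 µM (edgeR adjusted p = 1.8e-05) in WT and 2.56 ± 0.54 and 2.41 ± 0.55 in ST (edgeR adjusted p = 2.1e-05 and 7.6e-05).

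Valproic acid at 10000 µM gave 8, 16 and 16 reads of Sult1c3 in batch 1 of WT and 3, 5 and 5 in batch 2. It was called without the filter in ST (L2FC 1.93 ± 0.55, edgeR adjusted p = 0.0013) and not in WT. Ranitidine at 4000 µM was called lower for Sult1c3 in WT without the filter (L2FC -1.69 ± 0.63, edgeR adjusted p = 0.025), at 0 to 2 reads a well. The WT probe of Sult1c2 had 0 reads in all but 2 wells, whereas its ST probe, another one, averaged 4.63 reads. Vehicle wells of ST held 6 to 7 reads of Sult1c2 in batch 1 and 3 to 8 in batch 2, and without the filter 6 of 29 comparisons (medium included) were called lower, where 17.6% of comparisons with treatments were called lower for ST genes past the filter. The fall was largest at acetaminophen 10000 µM (L2FC -2.23 ± 0.57, edgeR adjusted p = 2.7e-04). With a mean under 5 reads these values are counts of single reads and set no level.

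**Figure D4:**
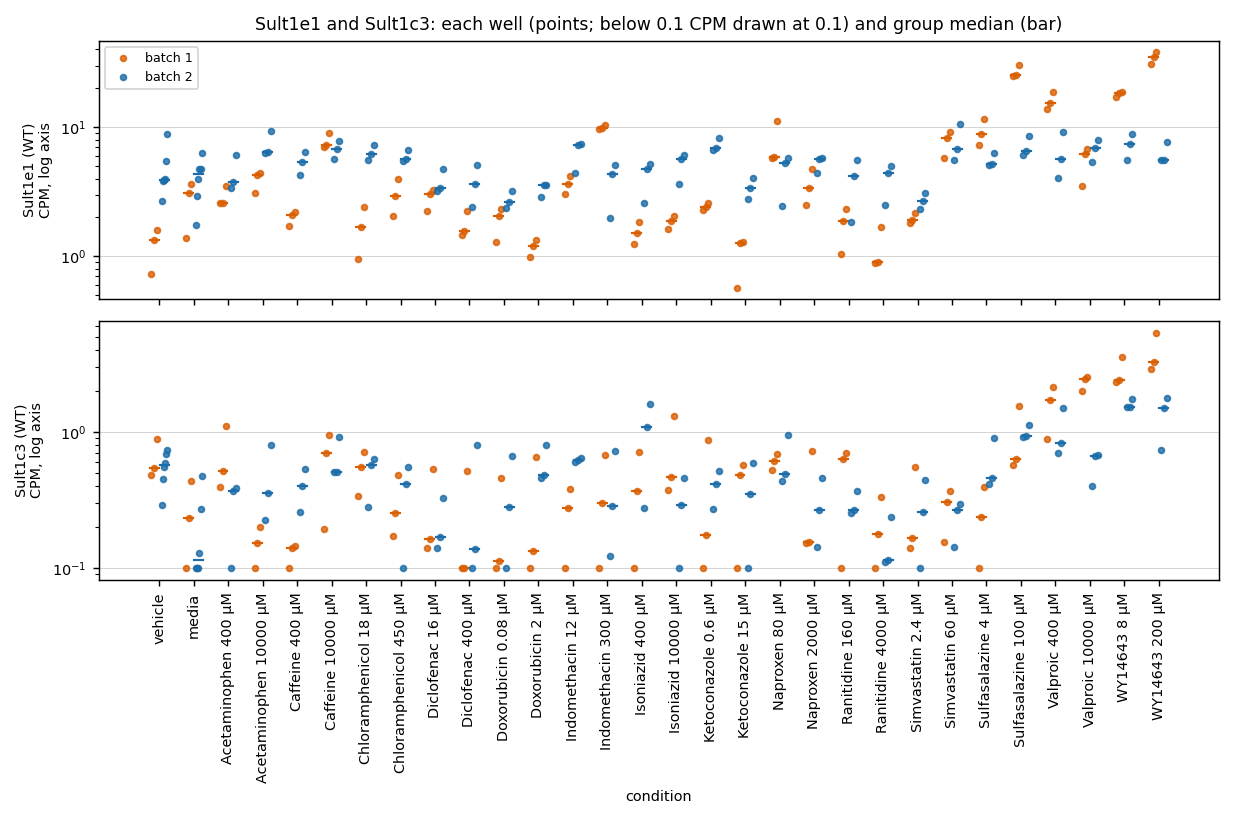
CPM of Sult1e1 and Sult1c3 in the WT assay (log axes, values under 0.1 CPM drawn at 0.1) in each of 30 conditions, with points for wells, bars for group medians, orange for batch 1 and blue for batch 2. At WY14643 200 µM, Sult1e1 reaches 30.9 to 37.9 CPM in batch 1 and 5.57 to 7.61 CPM in batch 2.

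The batches were compared by a batch by treatment interaction. It was called in 20 of 84 comparisons of the WT genes (23.8%) and 14 of 84 of the ST genes (16.7%), against 2.44% and 4.31% for all genes of each assay. Sult1e1 made up 10 of the WT calls, Sult1a1 6 and Ugt2b17 4, and in ST Ugt1a1 made up 6 and the 2 Ugt2b genes 4 each. Condition means of the 2 batches correlated over 30 conditions with r = 0.96 for Sult1a1, 0.87 for Ugt2b17, 0.85 for Ugt2b1 and Ugt2b10, 0.77 for Ugt1a1 and 0.55 for Sult1e1, as a description without a test. Ranked by mean level, most neighbouring conditions could not be separated: 24 to 27 of the 29 neighbouring pairs overlapped in at least 1 batch for each of the 6 genes.

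**Figure D5:**
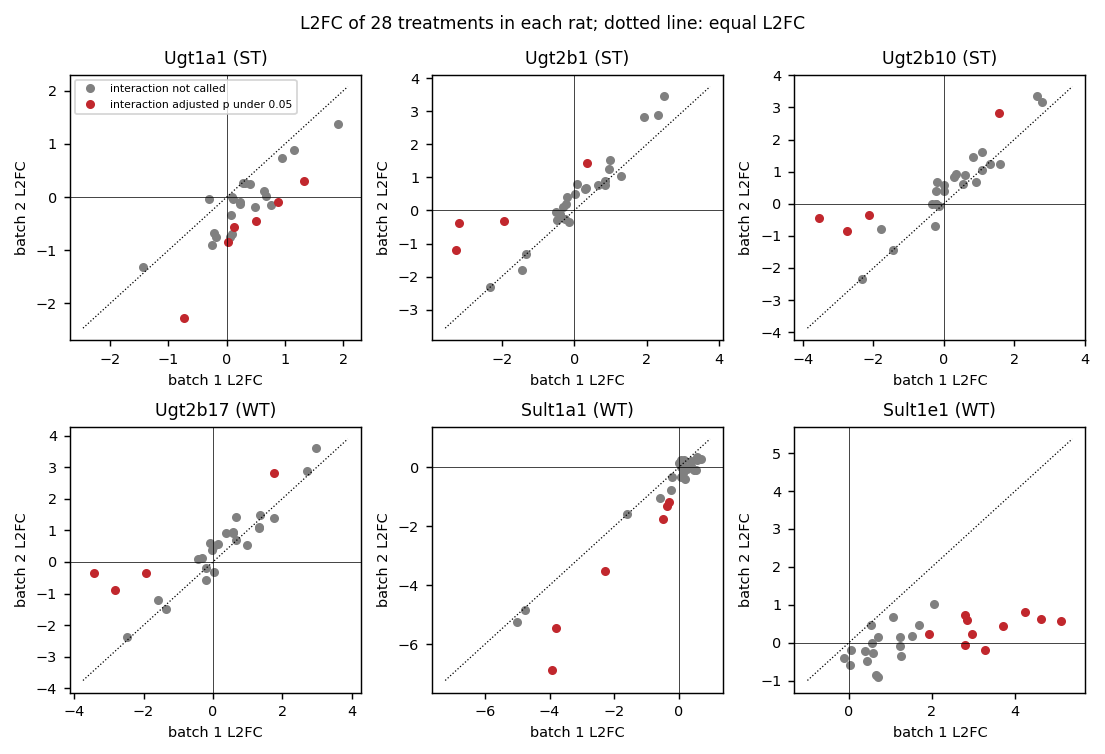
L2FC of batch 1 (horizontal axis) and batch 2 (vertical axis), fitted in each batch alone, for 28 treatments (points) and 6 genes (panels), with the line of equal L2FC dotted and the treatments whose interaction was called in red. Sult1e1 spans -0.11 to 5.11 in batch 1 but -0.90 to 1.03 in batch 2, whereas most points of the Ugt2b genes lie near the line.

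High against low concentration was called in 27 of 42 comparisons for the WT genes, 9 higher and 18 lower, and in 29 of 42 for the ST genes, 13 higher and 16 lower. With the wells of a rat summed, 18 and 19 were called. The shares called higher and lower were 21.4% and 42.9% in WT, where all genes had 20.1% and 20.7%, and 31.0% and 38.1% in ST, where all genes had 23.9% and 25.3%. Sult1a1 accounted for 11 of the lower calls in WT, and its median over the 14 chemicals was an L2FC of -1.22. Simvastatin gave the largest rise of high over low for Ugt2b17 (L2FC 3.43 ± 0.28, edgeR adjusted p = 1.2e-22).

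Medium without DMSO gave 1 call among the 6 symbols. Of the WT genes 0 of 3 were called by edgeR or by DESeq2, where all genes were called higher in 7.51% and lower in 5.10%, and the unadjusted edgeR p was above 0.05 for each. In ST, Ugt1a1 was called higher (L2FC 0.44 ± 0.16, edgeR adjusted p = 0.035), where all ST genes were called higher in 12.1% and lower in 9.49%. Its media wells of 1911, 1928 and 2388 CPM in batch 1 and 2921 to 6068 CPM (median 4371) in batch 2 overlapped with vehicle in both batches, the call was lost without any 1 of the vehicle wells of batch 1, and the same probe in WT was not called (L2FC 0.11, edgeR adjusted p = 0.71).

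The other genes of the 2 reactions were taken from lists and read in WT, where 15.2% of all comparisons were called higher and 15.0% lower. Of the other UGT symbols 4 of 19 were tested (Ugt1a9, Ugt2a3, Ugt2b15 and Ugt2b35), with 18 comparisons called higher and 32 lower of 112. Ugt1a9 in WT holds the probe that ST lists as Ugt1a1, so its calls are not separate from those of Ugt1a1. Ugt2a3 and Ugt2b35 fell at ranitidine 4000 µM (L2FC -4.00 ± 0.19 and -3.75 ± 0.25), and all 4 genes rose at simvastatin 60 µM. Of the other SULT genes 3 of 11 were tested, with 21 higher and 23 lower of 84. Sult1b1, a sulfotransferase of thyroid hormone and phenols, fell at acetaminophen 10000 µM (L2FC -5.36 ± 0.23, 41.2-fold), and Sult2a2, a hydroxysteroid sulfotransferase, rose at simvastatin 60 µM (4.38 ± 0.26, 20.8-fold). Part of the Sult2a2 probes in WT are listed as Sult2a6 in ST.

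Genes that supply UDP-glucuronic acid were called higher in 47 and lower in 47 of 252 comparisons, over 9 genes. Ugp2, which makes UDP-glucose, fell at acetaminophen 10000 µM (L2FC -2.28 ± 0.22). Genes of PAPS supply and recycling (7 tested) were called higher in 35 and lower in 29 of 196 comparisons, with Slc26a1, a sulfate transporter, lower at caffeine 10000 µM (-3.86 ± 0.23) and Slc26a2, another, higher at acetaminophen 10000 µM (1.78 ± 0.10). Of the genes that remove conjugates, Sts and Arsa were tested, with 19 higher and 4 lower of 56 comparisons. Rises were 1.45 ± 0.16 for Sts, the steroid sulfatase, at acetaminophen 10000 µM and 1.11 ± 0.13 for Arsa, an arylsulfatase, at WY14643 8 µM. The 4 efflux transporters of conjugates gave 25 higher and 24 lower of 112, with Abcc2 (canalicular) lower at acetaminophen 10000 µM (-2.43 ± 0.18) and Abcc3 (basolateral) higher at caffeine 10000 µM (1.87 ± 0.14).

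Receptors and factors that regulate conjugation (11 tested) were called higher in 63 and lower in 70 of 308 comparisons. Nr1i2 (PXR) and Nr1i3 (CAR) both fell at acetaminophen 10000 µM, where Nr1i2 dropped from 694 to 1049 reads in vehicle wells to 7 to 60 reads (L2FC -4.45 ± 0.19), and Nr1i3 had 13 to 48 reads in vehicle wells and 0 to 4 there. Genes known to respond to PPAR alpha were called higher in 78 and lower in 5 of 168 comparisons. Cyp4a1, a fatty acid hydroxylase, rose at WY14643 200 µM from 6 to 16 reads to 21239 to 24726 reads, and Acot1 from 0 to 1 read to 5529 to 5932 reads. At the same treatment, Cyp2b2, read here as a CAR and PXR gene, rose from 6 to 32 reads to 5624 to 11599 reads, and Cyp2b1 from 0 to 3 reads to 155 to 421 reads. That list of 3 genes was called higher in 35 and lower in 7 of 84.

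Genes known to respond to the Ah receptor (4 tested) were called higher in 34 and lower in 12 of 112, with Cyp1b1 higher at isoniazid 10000 µM (87 to 191 reads, against 0 to 12 in vehicle) and Cyp1a1 lower at acetaminophen 10000 µM (0 to 11 reads, against 151 to 296). Genes known to respond to NRF2 (6 tested) were called higher in 34 and lower in 35 of 168, with Txnrd1 (L2FC 3.31 ± 0.25) and Nqo1 (2.78 ± 0.15) higher at acetaminophen 10000 µM.

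The genes whose level followed each member most closely were ranked by the lower of the 2 within-batch correlations over 30 conditions. Ugt2b17 was closest to Cyp2c24 (r = 0.90 in batch 1 and 0.80 in batch 2), Crp (0.78 and 0.72) and Cyp2c6v1 (0.77 and 0.69) in WT. In ST, Ugt2b1 and Ugt2b10 were each closest to the other, followed by Cyp2c24 (0.87 and 0.75 for Ugt2b1, 0.90 and 0.77 for Ugt2b10) and Crp (0.80 and 0.72, 0.76 and 0.71). Ugt1a1 was closest to Gbe1 (0.75 and 0.86), Echdc2 (0.69 and 0.74) and Slc25a13 (0.68 and 0.76), and Sult1e1 to Serinc3 (0.67 and 0.63), Fam126b (0.65 and 0.63) and RGD1307100 (0.80 and 0.63). These correlations share wells and libraries and carry no test, and some of the genes named change with the scale. With TMM factors, Pipox replaced Uox for Sult1a1, Fbxw2 replaced RGD1307100 for Sult1e1, and Pgm1 and Lyn replaced Echdc2 and Slc25a13 for Ugt1a1. By Spearman's rho, all 3 genes of Sult1a1 changed (Apoa1, Glud1 and Cd302), Por and Pxmp4 came first for Sult1e1, and Cyp2c24 and Crp stayed among the 3 closest of each Ugt2b gene.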

How the data were processed

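Hepatocytes of 2 male Wistar rats were profiled with the TempO-Seq ST and WT assays on the same lysates. The authors aligned reads with STAR and deposited raw read counts per probe and well, without normalization or filter; the submitters' processing notes name STAR 2.5.3a and build rn6. Samples were grouped by the chemical, concentration and batch in their labels, and no 2 wells held identical values. Counts were summed over the probes of a symbol, genes with a mean of at least 10 reads were kept, and edgeR 4.0.16 (R 4.3.3; TMM, quasi-likelihood test, Benjamini-Hochberg adjustment over all genes of a comparison) was fitted to all wells of an assay with batch as a term. CPM used library totals, and correlations used log2(CPM + 0.5). WT was the planned assay; genes found under their symbol in ST alone were read in ST.

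All members and gene lists were chosen with earlier results of these data known. Treatments given in full were up to 3 with the largest rise and up to 3 with the largest fall among called treatments with the same sign in both batches; further treatments were chosen after their values were seen. On simulated counts for 1 treatment of 6 wells against 9 vehicle wells, 199 of 200 genes changed 2-fold were recovered in ST (1760 genes, 13 false calls) and 196 of 200 in WT (2039 genes, 7 false calls). Every simulated gene had the same fixed dispersion, wells were drawn independently and the change was equal in both batches. The members did differ between batches in part of their comparisons, so this recovery does not carry over to them. Depth limits precision for genes under about 10 reads a well. Alternatives were RLE scaling, library totals alone, no filter, DESeq2 1.42.0, summed wells, no batch term, single batches, vehicle wells of the same plate, single probes and each well left out; fits with wells left out used the dispersion trend of all wells. Probe sequences and proteins were not used here.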

Additional observations from a re-analysis of the deposited data

Results flagged for a closer look

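The response differed between the 2 batches, by the edgeR interaction test (adjusted p under 0.05), in 10 pairs of a gene and a treatment described in full, over 7 treatments, given here as the L2FC of batch 2 minus that of batch 1. Sult1e1 responded less in batch 2 to WY14643 at 200 µM (-4.51), sulfasalazine at 100 µM (-3.96) and WY14643 at 8 µM (-3.39). Acetaminophen at 10000 µM lowered the Ugt2b genes less in batch 2, by 2.06 for Ugt2b1, 1.88 for Ugt2b10 and 1.93 for Ugt2b17. Caffeine at 10000 µM raised Ugt2b10 (1.17) and Ugt2b17 (1.05) more in batch 2. Sult1a1 fell further in batch 2 with ranitidine at 4000 µM (-2.97), and Ugt1a1 did so with valproic acid at 10000 µM (-1.57). Ugt2b17 is read by the probes of Ugt2b1 and Ugt2b10, so its 2 pairs do not count as further cases. Animal, plate, library construction and sequencing run cannot be told apart between the batches.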

How the results depend on the processing

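The 30 L2FC chosen by the rule on the largest rises and falls kept their direction under every alternative run (in the fits of batch 1 alone and batch 2 alone this was fixed by the rule, which asked for the same sign in both batches), and 659 of their values stayed on the same side of the threshold; other treatments in the text lost calls as given there, and indomethacin at 300 µM changed sign between the batches for Sult1e1. The 4 of these values that did not were Ugt1a1 with doxorubicin at 2 µM (-0.61 with summed wells, -0.25 in batch 1 alone) and, in batch 2 alone, Sult1e1 with WY14643 at 200 µM (0.57) and sulfasalazine at 100 µM (0.64). Summing the wells of a rat, which leaves 1 value per rat, lowered the calls that were higher from 18 to 8 in WT and from 22 to 14 in ST, and the high against low calls in ST from 29 to 19; lower calls went from 17 to 12 in WT and from 17 to 14 in ST, and high against low calls in WT from 27 to 18, with 0 of 6 left for Sult1e1 and 2 of 9 for Ugt1a1. Requiring an absolute L2FC of at least 1 left 18 of these 29, and 127 of 324 calls of the conjugation lists. Without the replicate block (batch term), WT gave 17 higher and 17 lower calls and ST 21 and 18. The ST medium call (1) became 0 without the filter, with library totals alone, with summed wells, without the replicate block, in batch 1 alone, at an absolute L2FC of at least 1 and with the WT probe of the same number, and 2 in batch 2 alone; leaving out wells gave 0 to 2 (0 without replicate 2 of every group, without any 1 of the vehicle wells of batch 1 or without vehicle well 6 of batch 2, and 2 without vehicle well 1 of batch 2). With wells left out, WT had 12 to 18 higher and 16 to 17 lower calls, and ST 19 to 24 and 15 to 19. Library totals alone, ST without the filter for Sult1e1 and the WT probe of the same number were chosen after seeing the data; library totals alone moved the median of all genes by -0.51 to 0.34 across treatments. The interaction was refitted with RLE alone (20 and 14 calls, as before); its other alternatives were not run. ST in place of WT gave no value for Sult1a1, and for Sult1e1 it was run without the filter.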
